A study of Sus scrofa with 35 samples.

Results

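The genes of translation initiation and elongation factors were described in whole blood of pigs kept in a thermoneutral climate or under heat stress. They were every gene on the array whose symbol starts with EIF or EEF followed by a digit. This gave 60 gene names of 45222 on the array, carried by 151 of 60305 distinct probes. The table of log2 values held 145 of the 151 probes and at least 1 probe of each of the 60 genes. Membership was set by names only and by no measured value, but the family was chosen with earlier results of these data known. Of the 60 symbols, 55 stand in current pig gene tables, and EIF2C1, EIF2C2 and EIF2C4 are older symbols of the Argonaute genes AGO1, AGO2 and AGO4, which act in RNA silencing. EEF1A1P9 and EIF3CL had no match there and kept the name of the array.

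Blood came from 35 castrated male growing pigs, with 1 array per pig. They were Creole pigs (CR, a local breed of the Caribbean), Large White pigs (LW, a commercial breed) and their F1 crosses. Thermoneutral pigs (TN) were sampled at 24 °C. Pigs under heat stress (HS) were sampled after 5 d in the heat or a day earlier, at 30 °C according to the sample titles and at 32 °C according to the protocol text. There were 5 CR TN pigs and 6 pigs in each of the groups CR HS, F1 TN, F1 HS, LW TN and LW HS. All TN pigs were slaughtered before the HS pigs, so climate and day of slaughter cannot be told apart. Pen, sire and dam are not in the labels, and the p-values treat pigs as independent. Whole blood is a mixture of red cells, platelets and white cells, and a change of cell proportions cannot be told apart from a change of RNA per cell.

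Initiation brings the ribosome to the start codon of a messenger RNA. eIF2 carries the initiator tRNA and is recharged with GTP by eIF2B, and stress kinases slow this cycle by phosphorylating the alpha subunit of eIF2. eIF4F binds the cap through eIF4E, unwinds the leader with the helicase eIF4A and connects to eIF3 on the small subunit through the scaffold eIF4G, while eIF4E binding proteins (4E-BPs) keep eIF4E out of that complex until the mTOR kinase phosphorylates them. In elongation, eEF1A delivers aminoacyl-tRNA, the eEF1B subunits recharge it and eEF2 moves the ribosome along. Immature red cells, which still hold ribosomes and mRNA, use the heme-regulated kinase EIF2AK1 to fit globin synthesis to heme supply.

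The sequences of 5 probes on which the results turn are given in the orientation deposited by the authors, 5′ to 3′. The first 3 carried the largest rise in eIF4F, the largest rise in eIF3 and the largest fall of all members.

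EIF4A1 (A_72_P643696): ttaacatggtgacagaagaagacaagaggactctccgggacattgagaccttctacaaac
EIF3I (O13023): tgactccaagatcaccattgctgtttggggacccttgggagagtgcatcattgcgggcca
EEF1A2 (O12665): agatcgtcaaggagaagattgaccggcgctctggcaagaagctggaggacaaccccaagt
EIF4EBP1 (A_72_P502017 and O10675): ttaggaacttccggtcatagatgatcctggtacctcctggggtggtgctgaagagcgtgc
EIF2B1 (O9195): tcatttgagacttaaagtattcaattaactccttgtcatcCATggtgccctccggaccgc

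The EIF4EBP1 sequence is shown because 2 probes share it, and the EIF2B1 sequence because its signal went against the other EIF2B1 probes. On both, each of the 3 reading frames of the strand shown holds a stop codon, whereas 1 frame of the reverse complement is open throughout. The capitals in the EIF2B1 probe mark the reverse complement of an ATG at base 18 of the opposite strand, from which 14 codons are open. The EIF4A1 probe had 1 open frame on each strand, and the EIF3I and EEF1A2 probes 2 on each. The labelled RNA of this kit is complementary to mRNA, so that a probe with the letters of the mRNA strand pairs with it. Of the 151 member probes, 19 were open on the reverse complement only. Of these 19, 3 rose (probes of EEF2K, EIF2B5 and EIF4G2) and 2 fell (the EIF2B1 probe and the brighter EIF4EBP1 probe), out of 42 member probes that rose and 7 that fell. Their median log2 difference of heat stress minus thermoneutral was -0.18, against 0.15 for the 102 measured probes open on both strands, 0.09 for the 16 open on the printed strand only and 0.08 for the 8 open on neither. Probes of 1 gene are included more than once in these medians. Which RNA strand each probe bound was not tested. The 19 also hold the brightest probes of EIF2S1, EIF2S3, EIF2A, EIF4E, EIF4A2, EIF4A3 and EEF1E1, genes that did not pass the test below.

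The first comparison asked which factors differed between HS and TN with breed held constant. Differences are HS minus TN on the log2 scale from the additive model of limma. Benjamini-Hochberg adjusted p-values were taken over all 39072 probes with a threshold of 0.05, and a gene was represented by its brightest probe. By these representatives, 25 of the 60 genes were detected as up-regulated, 6 as down-regulated and 29 did not pass the test. This was 41.7% up and 10% down, beside 18.6% up and 17% down when each of the 28066 gene names in the table was read by its brightest probe. In either direction it was 51.7% of the members and 35.6% of all gene names. Over all probes of the members, 49 of 145 were called, or 33.8%, beside 34.8% of all probes tested. Genes had unequal numbers of probes in this count, and EEF1A1, EIF3E and EIF4A2 held 52 of the 145 probes, and 0 of these were called. Of the members' probes 42 rose (29.0%, against 20.1% of all probes) and 7 fell (4.83%, against 14.7%). The median difference was 0.13 over the members' probes and 0.06 over all probes, and by brightest probe 0.13 over the 60 genes and 0.05 over all gene names. No test of the family as a set was made. Without the 12 F1 pigs, 0 of the 145 probes passed in limma and 34 had an unadjusted p under 0.05, while 0 of all 39072 probes passed. The sizes without F1 pigs had a median of 0.24 over the 25 genes that rose, with all 25 above 0, and of -0.27 over the 6 that fell, with all 6 below 0. Among the 18 called genes of the 28 named by the rule given under the processing, EEF2 (0.34), EIF5 (-0.55) and EIF2C1 (0.26) were then farther from 0 than over all pigs. The other called genes are not listed in this way. All these genes were chosen by a fit that holds these same CR and LW pigs. Their signs without F1 pigs are therefore a description and no independent test.

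**Figure D1:**
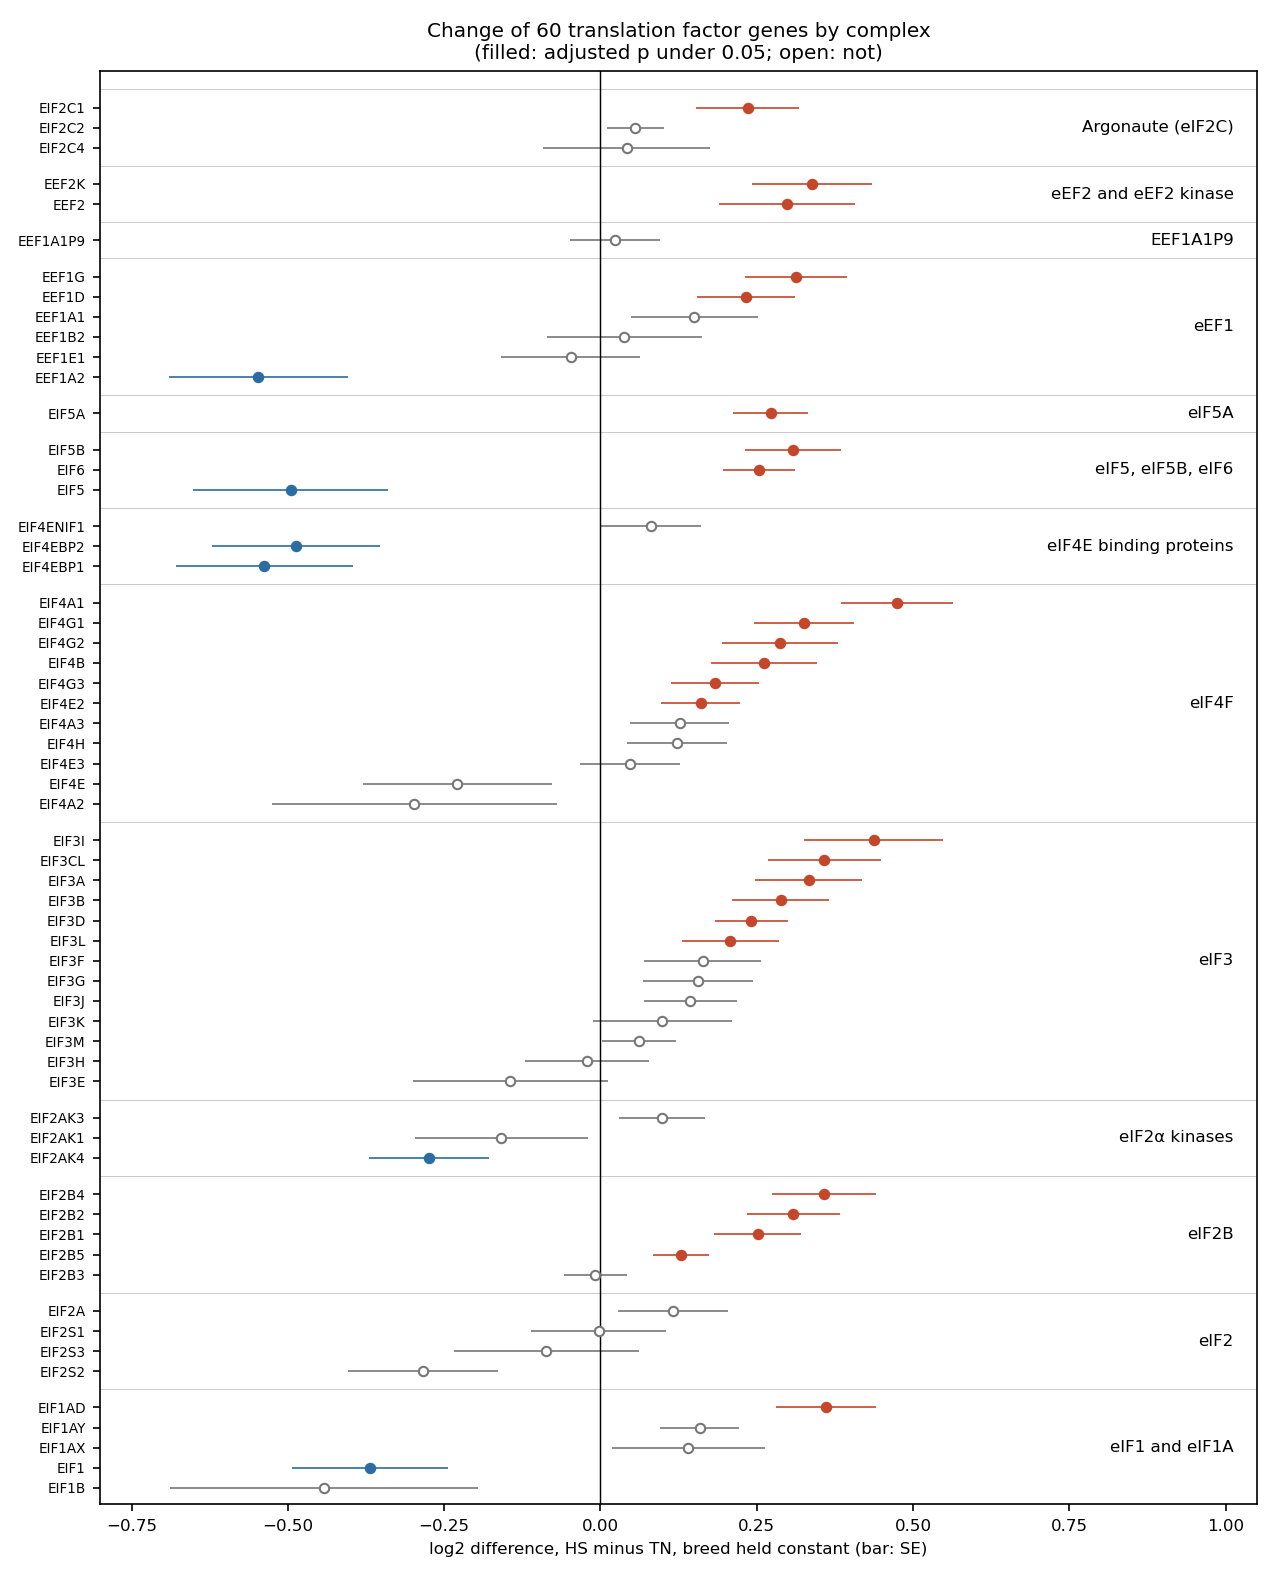
Log2 difference of HS minus TN (x axis, breed held constant, bars are SE) of the brightest probe of each of the 60 genes (y axis), arranged by complex. Filled points passed an adjusted p of 0.05 in limma (25 up in red, 6 down in blue), and open points did not; the 4 eIF2B genes that passed lie right of 0 and the 2 eIF4E binding proteins that passed lie left of it, and none passed without the F1 pigs.

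Among the cap-binding and scanning factors, 6 of 11 genes of the eIF4F group rose and 0 fell. This count and those of the other complexes are by brightest probe, for which the shares over all gene names were 18.6% up and 17% down. EIF4A1, the helicase, showed the largest rise of all members. Its log2 levels were 9.74, 9.97, 10.11, 10.22 and 10.31 in the 5 CR TN pigs and 9.85 to 10.85 (median 10.54) in CR HS pigs. They were 9.49 to 10.14 (median 9.83) in F1 TN pigs and 10.35 to 10.79 (median 10.59) in F1 HS pigs. In LW pigs they were 9.72 to 10.12 (median 9.99) in TN and 9.88 to 10.61 (median 10.28) in HS. The F1 groups did not overlap, and the CR and LW groups did. How many of all probes separated the F1 groups was not counted, so separation is a description here and for the genes below. The log2 difference was 0.47 ± 0.09 (SE, limma adjusted p = 0.0016, 1.39-fold). EIF4A1 had 5 probes, of which 4 rose, by 0.25 to 0.47, and the fifth (O9343) had a log2 difference of 0.11 ± 0.08 with a limma adjusted p of 0.246.

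The scaffolds rose too. EIF4G1, the main scaffold, differed by 0.33 ± 0.08 on the log2 scale, EIF4G2, a scaffold that lacks the eIF4E site, by 0.29 ± 0.09, and EIF4G3 by 0.18 ± 0.07. The dimmest EIF4G1 probe had a log2 difference of 0.07 and did not pass (limma adjusted p = 0.435). EIF4B, which stimulates the helicase, rose by 0.26 ± 0.08, and EIF4E2, a cap-binding homologue that represses translation, by 0.16 ± 0.06. The cap-binding protein EIF4E itself had a log2 difference of -0.23 ± 0.15 and did not pass (limma adjusted p = 0.233). The EIF4E probes are open on the reverse complement only, and whether they read EIF4E mRNA was not tested. EIF4A2, the paralogue of EIF4A1, was measured by 15 probes, of which 0 passed, 5 had a positive and 10 a negative difference. EIF4A3, the paralogue in the exon junction complex, was split: its brightest probe had a log2 difference of 0.13 ± 0.08 (limma adjusted p = 0.208), whereas its other probe rose by 0.39 ± 0.10.

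By their brightest probes, the eIF4E binding proteins EIF4EBP1 and EIF4EBP2 both fell. The EIF4EBP1 probe is open on the reverse complement only, and whether it read EIF4EBP1 mRNA was not tested. EIF4EBP2 lay at log2 levels of 11.04, 11.38, 11.49, 11.62 and 12.27 in CR TN pigs and of 10.64 to 11.94 (median 11.22) in CR HS pigs. In F1 pigs it ran from 11.72 to 12.47 (median 12.07) in TN and from 10.72 to 11.45 (median 11.11) in HS, with no overlap. In LW pigs it ran from 11.09 to 11.94 (median 11.77) in TN and from 11.18 to 11.90 (median 11.44) in HS, so that all LW HS pigs lay within the range of LW TN pigs. The log2 difference was -0.49 ± 0.13 (SE, limma adjusted p = 0.0069, 0.714 times the TN level).

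EIF4EBP1 was read by 2 probes of identical sequence. With the brighter, log2 levels were 7.27, 7.65, 7.65, 8.01 and 8.49 in CR TN pigs and 6.73 to 8.09 (median 7.23) in CR HS pigs. They were 7.88 to 8.49 (median 8.36) in F1 TN and 6.64 to 7.76 (median 7.39) in F1 HS pigs, which did not overlap. In LW pigs they were 7.22 to 8.16 (median 7.73) in TN and 7.40 to 7.99 (median 7.51) in HS, which overlapped throughout. The log2 difference was -0.54 ± 0.14 (SE, limma adjusted p = 0.0051). The other probe, with the same 60 bases, differed by -0.23 ± 0.10 and did not pass (limma adjusted p = 0.0694). It read lower in 35 of 35 pigs, with a median gap of 1.07 on the log2 scale (range 0.37 to 1.85). For comparison, the 2 pairs of identical EIF3E probes had median gaps of 0.03 and 0.18. The 2 EIF4EBP1 probes were therefore counted as 1 sequence whose reading differed between spots. EIF4ENIF1, which carries eIF4E into the nucleus, had a log2 difference of 0.08 ± 0.08 and did not pass (limma adjusted p = 0.435).

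**Figure D2:**
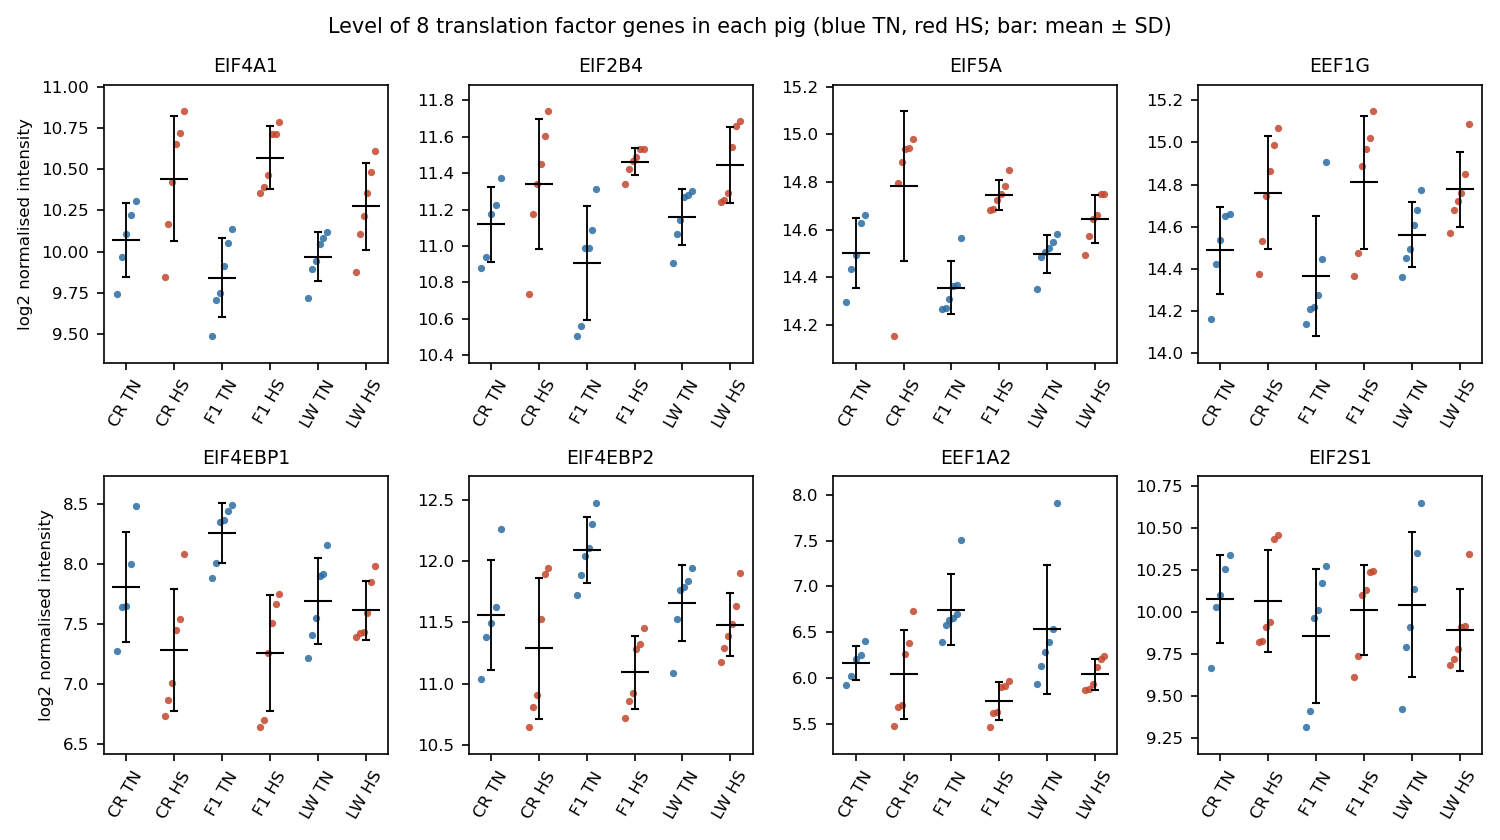
Log2 normalised intensity (y axis) of 8 genes in each of the 35 pigs by group (x axis), each gene with its own scale. Points are pigs (blue TN, red HS) and bars the mean ± SD; EIF4A1, EIF2B4 and EIF5A of F1 HS pigs lie above those of all F1 TN pigs, EIF4EBP1, EIF4EBP2 and EEF1A2 below, and EIF2S1 overlaps in all 3 breeds.

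In the ternary complex and its regulators, the subunits of eIF2 and of its exchange factor differed in their calls. Of the 4 genes of the eIF2 group, which were its subunits and EIF2A, 0 passed in limma. Of their 5 probes 2, of EIF2S2 and EIF2A, had an unadjusted p under 0.05. The brightest probes of EIF2S1, EIF2S3 and EIF2A are open on the reverse complement only, and whether they read these mRNAs was not tested. EIF2S1, the alpha subunit that is phosphorylated under stress, lay at log2 levels of 9.66, 10.03, 10.10, 10.25 and 10.34 in CR TN pigs and of 9.82 to 10.46 (median 9.92) in CR HS pigs. It ran from 9.31 to 10.27 (median 9.99) in F1 TN, 9.61 to 10.24 (median 10.12) in F1 HS, 9.42 to 10.65 (median 10.02) in LW TN and 9.68 to 10.34 (median 9.85) in LW HS pigs. The groups overlapped in each breed, and the log2 difference was -0.003 ± 0.107 (SE, limma adjusted p = 0.986). Its sequence is also printed on the array under the name LOC100155472, so the reading belongs to both names. EIF2S2, the beta subunit, had a log2 difference of -0.28 ± 0.12 (limma adjusted p = 0.0628), EIF2S3, the gamma subunit, of -0.09 ± 0.15, and EIF2A, a separate factor that can also deliver initiator tRNA, of 0.12 ± 0.09.

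Of the 5 genes of eIF2B, 4 rose, and 8 of their 11 probes. EIF2B4, the delta subunit, lay at 10.88, 10.94, 11.17, 11.23 and 11.38 in CR TN pigs and at 10.73 to 11.74 (median 11.39) in CR HS pigs on the log2 scale. In F1 pigs it ran from 10.51 to 11.31 (median 10.99) in TN and from 11.34 to 11.53 (median 11.48) in HS, and in LW pigs from 10.91 to 11.30 (median 11.21) in TN and from 11.24 to 11.68 (median 11.42) in HS. The F1 groups did not overlap, but narrowly, with the highest TN pig at 11.31 and the lowest HS pig at 11.34. The LW groups overlapped only between 11.24 and 11.30. This gave a log2 difference of 0.36 ± 0.08 (SE, limma adjusted p = 0.0024). EIF2B2, the beta subunit, rose by 0.31 ± 0.07 and EIF2B5, the catalytic epsilon subunit, by 0.13 ± 0.04 with its brightest probe and by 0.25 and 0.31 with 2 others. EIF2B3, the gamma subunit, was well above background on 32 of 35 arrays and had a log2 difference of -0.01 ± 0.05.

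EIF2B1, the alpha subunit, was the only gene with called probes in both directions. The 3 probes A_72_P687178, A_72_P487968 and A_72_P368488 rose, by 0.25 ± 0.07, 0.29 ± 0.08 and 0.29 ± 0.07 on the log2 scale. The probe O9195, shown above with its open reverse strand, fell by 0.47 ± 0.15 (SE, limma adjusted p = 0.0149). With O9195, log2 levels were 6.25, 6.94, 7.24, 7.39 and 8.03 in CR TN pigs, 5.80 to 7.19 (median 6.92) in CR HS, 7.03 to 8.48 (median 7.93) in F1 TN, 6.63 to 7.40 (median 6.88) in F1 HS, 6.98 to 7.84 (median 7.42) in LW TN and 7.19 to 7.61 (median 7.31) in LW HS pigs. These ranges overlapped in each breed. The mean over the 4 probes did not pass (log2 difference 0.09), so the call for EIF2B1 depends on the probe.

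**Figure D3:**
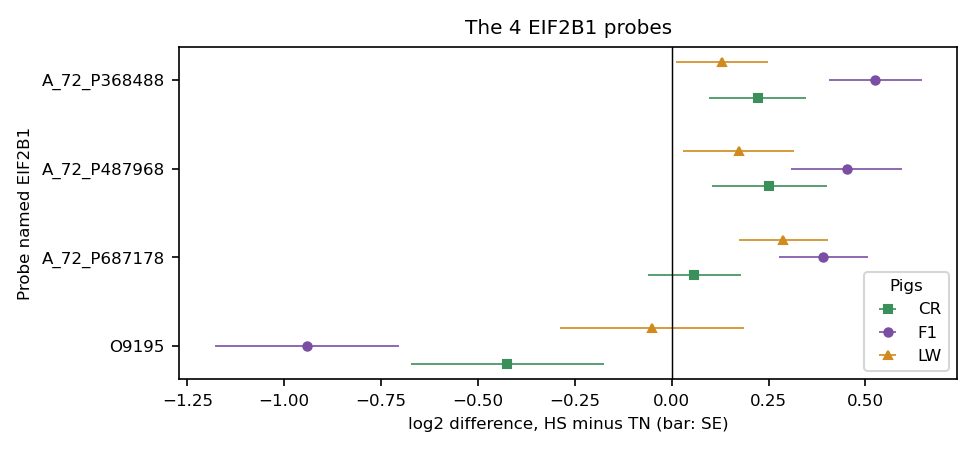
Log2 difference of HS minus TN (x axis, bars are SE) within CR, F1 and LW pigs for each of the 4 probes named EIF2B1 (y axis). The point estimates of O9195 are below 0 in all 3 breeds, at -0.94 in F1 pigs, and those of the other 3 probes are above 0 in all 3.

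Of the 3 stress kinases of eIF2, 1 fell and 2 did not pass. EIF2AK4, the kinase that senses uncharged tRNA, fell by 0.27 ± 0.10 on the log2 scale (SE, limma adjusted p = 0.0259). It was well above background on only 19 of 35 arrays, with 2 to 4 arrays in each group, and its group medians lay between 5.24 and 5.64, near the background. EIF2AK1, the heme-regulated kinase, had a log2 difference of -0.16 ± 0.14 (limma adjusted p = 0.375), and EIF2AK3, the kinase of the endoplasmic reticulum, of 0.10 ± 0.07 (limma adjusted p = 0.264).

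Of the 13 genes of eIF3, 6 rose and 0 fell. EIF3I showed the largest rise. It lay at 10.08, 10.28, 10.30, 10.41 and 10.61 in CR TN pigs and at 9.999 to 10.99 (median 10.79) in CR HS pigs on the log2 scale. In F1 pigs it ran from 9.70 to 10.48 (median 10.05) in TN and from 10.51 to 11.73 (median 10.77) in HS, and in LW pigs from 10.02 to 10.52 (median 10.28) in TN and from 10.22 to 10.81 (median 10.48) in HS. The F1 groups did not overlap, by a margin of 0.03, and the other breeds overlapped. The log2 difference was 0.44 ± 0.11 (SE, limma adjusted p = 0.0042). The other 5 that rose were EIF3CL (0.36), EIF3A, the largest subunit (0.33), EIF3B (0.29), EIF3D (0.24) and EIF3L (0.21). The dimmer EIF3D probe had a log2 difference of 0.10 and did not pass (limma adjusted p = 0.211). The symbol EIF3CL names a near copy of EIF3C, so this reading may hold both. EIF3E, by contrast, was measured by 16 probes with 14 distinct sequences, and all 16 had a negative log2 difference (-0.21 to -0.004) with none called in limma. These probes share 1 gene and are no replicates of each other. EIF3F, EIF3G, EIF3H, EIF3J, EIF3K and EIF3M did not pass, with log2 differences of -0.02 to 0.16.

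The next genes were grouped under start codon choice and subunit joining. Of these, EIF1AD rose by 0.36 ± 0.08 on the log2 scale (SE, limma adjusted p = 0.0019). EIF1AD was grouped with eIF1 and eIF1A, and its part in start codon choice was not tested. EIF1AX (0.14) and EIF1AY (0.16) did not pass. EIF1, which guards the choice of the start codon, fell by 0.37 ± 0.12 (limma adjusted p = 0.0223). EIF1 was at 6.75 to 8.62 (median 7.15) in F1 TN pigs, 6.62 to 6.93 (median 6.70) in F1 HS pigs, 6.46 to 7.39 (median 6.83) in LW TN pigs and 6.62 to 7.16 (median 6.92) in LW HS pigs, and these ranges overlapped. EIF1B, a paralogue of EIF1, had a log2 difference of -0.44 ± 0.25 and did not pass (limma adjusted p = 0.155), and its probe shares at least 20 bases with 5 probes of another name. EIF5, which makes eIF2 hydrolyse its GTP at the start codon, fell by 0.50 ± 0.16 (limma adjusted p = 0.0146). EIF5 lay at 10.71, 11.03, 11.13, 11.26 and 11.28 in CR TN and at 10.06 to 10.73 (median 10.39) in CR HS pigs, where only the lowest TN pig lay within the range of HS. In F1 pigs EIF5 ran from 9.91 to 11.97 in TN and from 9.78 to 10.70 in HS. In LW pigs it ran from 10.05 to 11.24 in TN and from 9.85 to 11.14 in HS. The F1 groups overlapped, and so did the LW groups. EIF5B, the GTPase that joins the subunits, rose by 0.31 ± 0.08 (limma adjusted p = 0.0038). EIF6, which keeps the large subunit apart, rose with 3 of 3 probes, by 0.20 to 0.39.

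EIF5A, which carries the modified residue hypusine and helps stalled ribosomes, had tight levels. They were 14.30, 14.43, 14.49, 14.63 and 14.66 in CR TN pigs and 14.15 to 14.98 (median 14.91) in CR HS pigs on the log2 scale. F1 pigs ran from 14.27 to 14.57 (median 14.34) in TN and from 14.68 to 14.85 (median 14.74) in HS, and LW pigs from 14.35 to 14.58 (median 14.51) in TN and from 14.49 to 14.75 (median 14.65) in HS. The F1 groups did not overlap, and 5 of the 6 CR HS pigs lay above all CR TN pigs. EIF5A rose by 0.27 ± 0.06 on the log2 scale (SE, limma adjusted p = 0.0019, 1.21-fold). Its dimmer probe had a log2 difference of 0.17 and did not pass (limma adjusted p = 0.0577).

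Of the 6 eEF1 genes, 2 rose, 1 fell and 3 did not pass. EEF1G, the gamma subunit, rose by 0.31 ± 0.08 and EEF1D, the delta subunit, by 0.23 ± 0.08 on the log2 scale. EEF1A1, among the most abundant mRNAs of many cells, had 21 probes, and all 21 had a positive log2 difference (0.09 to 0.30) with none called in limma. Its brightest probe lay at 15.46 to 16.01 (median 15.89) in F1 TN pigs and at 15.88 to 16.60 (median 16.26) in F1 HS pigs, which overlapped, and had a difference of 0.15 ± 0.10 (limma adjusted p = 0.248). EEF1B2 (0.04 ± 0.12), EEF1E1, a subunit of the tRNA synthetase complex (-0.05 ± 0.11), and the copy EEF1A1P9 (0.02 ± 0.07) did not pass.

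EEF1A2, the paralogue of EEF1A1 that is known from muscle and nerve, showed the largest fall of all members. It lay at 5.93, 6.03, 6.21, 6.25 and 6.40 in CR TN pigs and at 5.48 to 6.73 (median 5.98) in CR HS pigs on the log2 scale. F1 pigs ran from 6.40 to 7.51 (median 6.64) in TN and from 5.46 to 5.97 (median 5.77) in HS, and LW pigs from 5.94 to 7.91 (median 6.34) in TN and from 5.87 to 6.24 (median 6.03) in HS. The F1 groups did not overlap, and the highest LW TN pig stood far above the other LW TN pigs. The log2 difference was -0.55 ± 0.14 (SE, limma adjusted p = 0.0051, 0.684 times the TN level). A second EEF1A2 probe is not in the log2 table and was well above background on 5 of 35 arrays.

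Both genes of translocation rose. EEF2 differed by 0.30 ± 0.11 on the log2 scale (SE, limma adjusted p = 0.0331), with ranges of 11.45 to 12.17 in F1 TN, 11.67 to 12.63 in F1 HS, 11.23 to 12.70 in LW TN and 12.11 to 12.55 in LW HS pigs, which overlapped. Its call ended when any 1 of 7 pigs was left out. EEF2K, the kinase that inhibits eEF2, rose by 0.34 ± 0.10 (limma adjusted p = 0.0080) with its brighter probe, whereas its dimmer probe had a log2 difference of 0.02 ± 0.05 and did not pass. Of the 3 Argonaute genes under eIF2C symbols, EIF2C1 rose by 0.24 ± 0.08 (limma adjusted p = 0.0264) and the other two did not pass, at 0.04 and 0.06.

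The second comparison asked whether the members differed within each breed. In F1 pigs, 50 of the 145 probes were called in limma (43 up, 7 down), or 34.5%, beside 38.7% of all probes (20.8% up, 17.9% down). In CR pigs 0 were called, with 15 at an unadjusted p under 0.05, and in LW pigs 0, with 21. Over all probes 0% were called in CR pigs (3466 of 39072 unadjusted) and 0% in LW pigs (3404 unadjusted). The interaction of breed and climate had 0 called members in limma (7 unadjusted) and 0% of all probes (5807 unadjusted). It was therefore not shown that the response of any member differed between breeds.

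**Figure D4:**
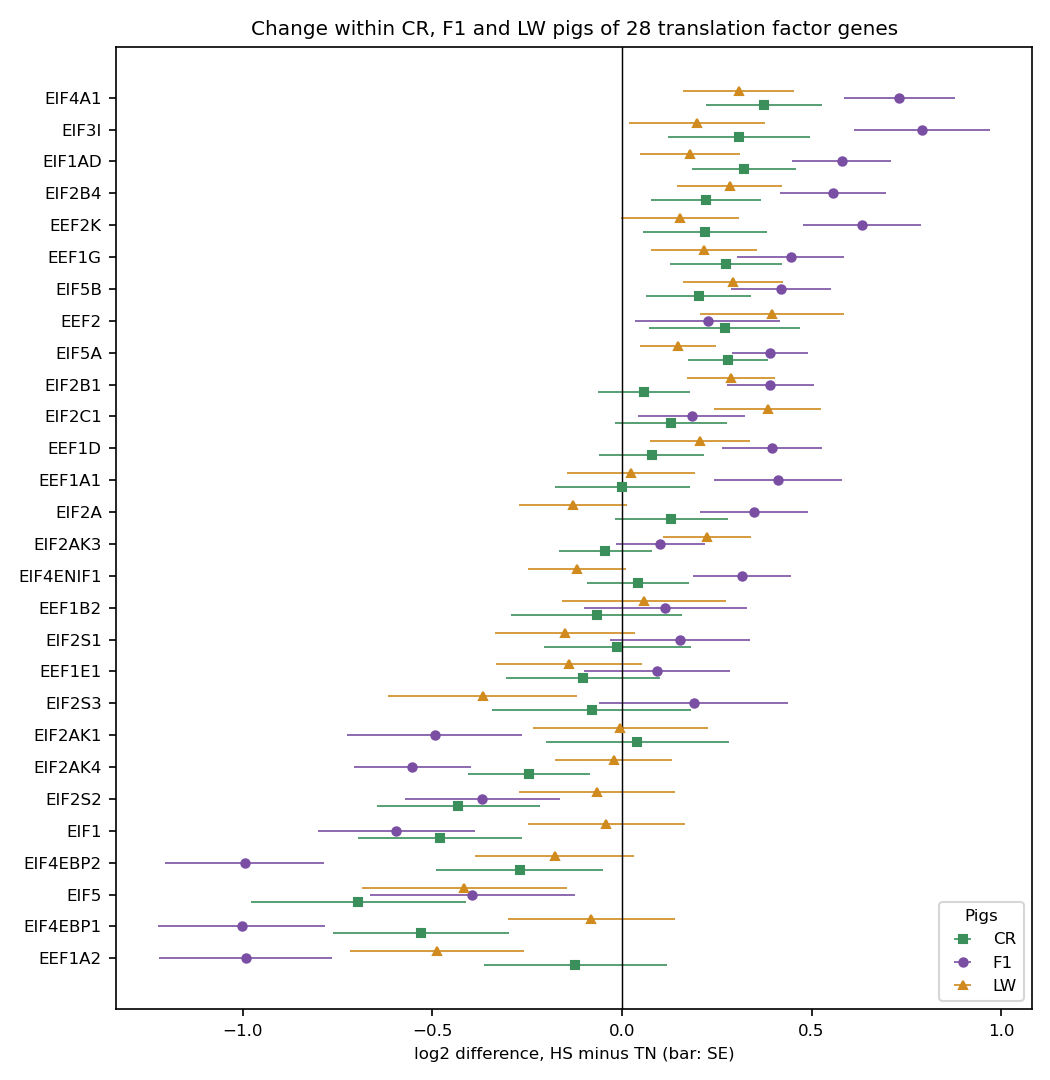
Log2 difference of HS minus TN (x axis, bars are SE) within CR, F1 and LW pigs for 28 genes (y axis), sorted by the difference over all pigs. The F1 point estimates of EIF4A1, EIF3I, EIF4EBP1 and EIF4EBP2 lie farther from 0 than those of CR and LW pigs, while no interaction passed the test.

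The sizes are given side by side, as a description, since the genes were chosen by a fit that holds these same pigs. The median log2 difference of the 25 genes that rose was 0.22 in CR, 0.39 in F1 and 0.27 in LW pigs. That of the 6 genes that fell was -0.37, -0.79 and -0.13. EIF4EBP1 differed by -0.53 in CR, -1.003 in F1 and -0.08 in LW pigs, and EIF4EBP2 by -0.27, -0.99 and -0.18. EIF4A1 differed by 0.38, 0.73 and 0.31. EEF2 differed most in LW pigs, by 0.39 against 0.23 in F1 and 0.27 in CR pigs, and EIF5 most in CR pigs, by -0.70 against -0.39 in F1 and -0.42 in LW pigs. EIF4H, which helps eIF4A, passed within F1 pigs (0.44, limma adjusted p = 0.0054), with point estimates of 0.03 in CR and -0.12 in LW pigs and an interaction p of 0.278 after adjustment.

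The breeds themselves were compared with climate held constant. Of the members 0 were called in limma for CR minus LW (10 unadjusted), F1 minus CR (6 unadjusted) and F1 minus LW (20 unadjusted), beside 1.08%, 0.184% and 0.0256% of all probes. The smallest adjusted p was that of EIF4E3, a cap-binding homologue, for CR minus LW (0.0654).

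Some markers of blood cell types also differed between HS and TN, and the quality of the arrays did so in F1 pigs. Each marker gene was read by its brightest probe, for which 18.6% of all gene names rose and 17% fell. Of 19 erythroid genes in the table, 11 fell under HS and 1 rose, with a median log2 difference of -0.72. CA1, a carbonic anhydrase of red cells, differed by -1.41 and ALAS2, the first enzyme of heme synthesis, by -0.74, whereas HBB, a globin with a mean log2 level of 17.44 in this blood, differed by -0.13 and did not pass. The mean log2 level of the 19 genes ran from 10.81 to 12.23 in CR TN, 10.21 to 12.03 in CR HS, 10.99 to 13.12 in F1 TN, 9.69 to 11.54 in F1 HS, 11.25 to 12.19 in LW TN and 10.75 to 11.84 in LW HS pigs. With this mean as a covariate, 0 of the 145 member probes passed in limma for HS minus TN (32 unadjusted) and 2 of all 39072 did. In F1 pigs 5 of the 145 member probes passed with it, beside 2445 of all 39072 probes. The 5 were 2 of EIF4A1 and 1 each of EIF1AY, EEF1A2 and EIF2B1 (O9195). The median difference of the 25 genes that rose was then 0.20, and that of the 6 that fell -0.22. Of 7 B cell genes 4 rose, of 12 T cell genes 3, of 8 monocyte genes 3 and of 7 platelet genes 1, while of 11 neutrophil genes 0 passed in limma (1 unadjusted) and all 11 had a negative difference, and of 10 cytotoxic cell genes 1 fell. The T cell, platelet, neutrophil and cytotoxic cell counts were near or below the shares over all gene names. The part of cells other than erythroid cells in these results was not tested. In F1 TN pigs, 55.2% to 63.9% of probes were well above background, against 63.2% to 67.5% in F1 HS pigs. The arrays lay on 5 slides that each held both climates. Within the slides, the median difference of the 25 genes that rose was 0.12 to 0.43 and that of the 6 that fell -0.68 to -0.24. Slide 5 held no breed in both climates. The genes were chosen by a fit on these same arrays, so these signs are a description.

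Genes that act with these factors were read from lists, each gene by its brightest probe, so that the background is again 18.6% of gene names up and 17% down. Of 15 genes of mTOR, S6 kinase and MNK control of translation, 5 rose and 1 fell. Those that rose were MTOR (0.25), its partner MLST8 (0.33), the kinases RPS6KB1 (0.31) and RPS6KA1 (0.26), and MKNK1 (0.26), a kinase of eIF4E. The gene that fell was TSC2 (-0.36), an inhibitor of mTOR. Of 11 genes of the eIF2 phosphatase and the integrated stress response, GCN1L1, an activator of EIF2AK4, rose (0.36), and NCK1 (-0.99), DDIT3 (-0.42) and CHAC1 (-0.34) fell. NCK1 is an adaptor protein, DDIT3 a transcription factor of the stress response and CHAC1 a glutathione-degrading enzyme. ATF4, the transcription factor at the centre of that response, had a log2 difference of -0.10 and did not pass.

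Of 9 genes that bind the poly(A) tail or the cap, PABPC1, the main poly(A)-binding protein, rose by 0.32, as did NCBP1, the nuclear cap-binding subunit, by 0.21. Of 10 genes of termination and recycling, PELO, a ribosome rescue factor, and GCN1L1 rose, while the release factor GSPT2 (-0.51) and ABCF1 (-0.43) fell. Of 4 genes that supply hypusine to eIF5A, DHPS (0.25), which makes the modification, and SRM (0.18), a spermidine synthase, rose. Of 7 mitochondrial factors, TUFM (0.31), the mitochondrial elongation factor Tu, and MTIF3 (0.29) rose. In all, 14 of the 56 list entries rose (25%) and 6 fell (10.7%), with GCN1L1 in 2 lists.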

How the data were processed

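Whole-blood RNA of 35 pigs was hybridised to 1-colour Agilent arrays with probes of 60 bases, read with Feature Extraction 10.10.1.1 according to the submitters' processing notes. For each spot, the deposited scanner output gives a raw median intensity and a background-subtracted intensity, neither of them normalised between arrays. The authors also deposited log2 values of 39072 probes, made from the median intensity by quantile normalisation with a filter on expressed probes whose rule is not given in the sources used here. These log2 values were analysed. Quantile normalisation of the scanner medians here gave the same values up to a median absolute difference of 0.0235, after 217 marked spots were set to missing.

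Groups came from the labels. Models of limma 3.58.1 in R 4.3.3 were fitted to all probes, with breed and climate as additive terms, or with 6 group means for effects within a breed and their interaction. Tests were two-sided with Benjamini-Hochberg adjustment. The fits returned the size of known changes when tested on simulated data with independent noise. That simulation held no spread shared by litters, pens or cell mixture, and no changes as small as most of those reported. It therefore says nothing about how well changes of the reported sizes are detected here. Pen, day of slaughter, sire and dam, which the study also modelled, were not fitted, so spread shared by litters or pens is not in the SE. The number of arrays limits the precision.

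Genes were named from the scanner files. The named genes were, per complex, the called gene with the largest rise and with the largest fall, and genes called in both directions. All genes of eIF2, its kinases, the eIF4E binding proteins, eEF1 and eEF2 were also named, 28 genes in all. Levels of the pigs are given for only some named genes, and for EIF1, EEF1A1 and EEF2 not in every breed. The remaining genes are given by their difference. The members, complexes and gene lists were chosen with earlier results of these data known. Reading frames were counted after the values were seen. Probes had no position in the files, and none is given.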

Additional observations from a re-analysis of the deposited data

Results flagged for a closer look

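The lowest and highest pig of each group were examined for the 28 named genes, 168 groups in all, and in 13 of them 1 pig stood apart from the rest of its group by Dixon's gap criterion at 95%. Chance gives about 1 in 20 groups, so several of these 13 are no more than chance would give. All values are log2 levels.

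In F1 TN pigs, EEF1A1 was at 15.46 in pig 3 (others 15.81 to 16.01), EEF1A2 at 7.51 in pig 3 (others 6.40 to 6.69), EIF2AK1 at 7.50 in pig 4 (others 6.26 to 6.67) and EIF5A at 14.57 in pig 5 (others 14.27 to 14.37). Pig 4 of this group also had the highest erythroid mean of all 35 pigs. In F1 HS pigs, EIF2B1 was at 8.92 in pig 1 (others 9.24 to 9.41), EIF3I at 11.73 in pig 3 (others 10.51 to 10.95) and EIF5B at 10.96 in pig 4 (others 10.34 to 10.49).

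In CR HS pig 1, EIF4ENIF1 was at 7.75 (others 8.27 to 8.48) and EIF5A at 14.15 (others 14.80 to 14.98). Without this pig, 64 in place of 49 member probes passed for HS minus TN. EEF1B2 was at 14.76 in CR TN pig 5 (others 13.78 to 14.05), and EEF1A2 at 7.91 in LW TN pig 4 (others 5.94 to 6.53). In LW HS pig 5, EIF2S1 was at 10.34 (others 9.68 to 9.92) and EIF2S3 at 9.09 (others 8.04 to 8.40). The fall of EEF1A2 was kept without LW TN pig 4 (log2 difference -0.46) and the rise of EIF3I without F1 HS pig 3 (0.37).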

How the results depend on the processing

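For HS minus TN, 49 of 145 member probes passed, beside 13601 of all 39072 probes. The count was 46 to 67 with scanner medians, without a filter, with only probes well above background on all arrays, with scaling on the 75th percentile, with normexp background correction, with the slide as a block, with array weights or without CR pigs, and 39 without LW pigs. With only probes well above background on all arrays, 11911 of all 29552 probes passed (members 46 of 135). Without a filter 12795 of 60305 passed (members 47 of 151), and with array weights 17120 of 39072 (members 67 of 145). Without LW pigs 11281 of 39072 passed (members 39 of 145). The other of these settings gave 12551 (without CR pigs) to 14429 (slide as a block) calls over all probes. The count of members was 0 without F1 pigs and 0 with the erythroid mean as a covariate, and 32 of 60 when the probes of a gene were averaged. Over all probes it was 0 and 2, and over all averaged gene names 10037 of 28066. In F1 pigs the count of 50 was 5 with the erythroid covariate and 28 of 60 with gene means, beside 2445 of 39072 probes and 11263 of 28066 gene names. Array weights gave 9 calls in LW pigs in place of 0 and 3 for CR minus LW, of EIF4E3, EIF2A and EIF5A. Over all 39072 probes these weights gave 1111 calls in LW pigs and 1524 for CR minus LW. When 1 pig was left out in turn, the lowest and highest counts were 43 and 64 for HS minus TN, 42 and 60 within F1 pigs, and 0 and 1 for CR minus LW, with 1 call without CR TN pig 3, F1 TN pig 3, CR HS pig 4 or LW HS pig 6. They stayed at 0 within CR and LW pigs, for the interaction, for F1 minus CR and for F1 minus LW. The call of EEF2 ended without CR TN pig 1 (0.27) or 4 (0.26), CR HS pig 5 (0.28), F1 TN pig 5 (0.27), F1 HS pig 4 (0.26), LW TN pig 5 (0.25) or LW HS pig 4 (0.28). EIF2S2 passed without CR TN pig 1 (-0.31) or 5 (-0.31), F1 TN pig 3 (-0.31), 5 (-0.32) or 6 (-0.31), LW TN pig 2 (-0.31) or 5 (-0.31) or LW HS pig 1 (-0.31). Of the 28 named genes, 18 lost their call without F1 pigs and 18 with the erythroid covariate, 4 without CR and 4 without LW pigs (EIF2B1 also with gene means), and the 18 called genes kept their sign under every alternative. A sign changed only for genes that passed neither way: EIF2S1 with 75th percentile scaling (0.042), the erythroid covariate (0.12), without CR (0.0014) or LW pigs (0.074) and over left-out pigs (-0.043 to 0.041), EEF1E1 with the covariate (0.077), gene means (0.051) or without LW pigs (1.37e-05), EIF2AK1 with the covariate (0.15) or without F1 pigs (0.017), EIF2S3 without LW pigs (0.061), and EEF1B2 (-0.00161), EIF2A (-0.00560) and EIF4ENIF1 (-0.042) without F1 pigs. The cause of these changes was not tested. The 18 called genes were chosen by a fit on these same pigs, so their kept signs are a description. No paired analysis was possible because the labels give no replicate numbers that pair pigs. Probes near the background, such as that of EIF2AK4, give the least certain differences.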

Other observations

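The table of log2 values leaves out 6 member probes. Of these, 1 each of EIF4H and EIF4EBP2 were well above background on 0 of 35 arrays, 1 each of EIF2C2 and EIF2S1 on 1 array, 1 of EIF2C4 on 4 arrays (3 of them of F1 HS pigs) and 1 of EEF1A2 on 5 arrays.

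Identical sequences gave a measure of the error between spots. EIF6 shares its sequence with a probe of another name, and the 2 read within 0.13 of each other on the log2 scale in all 35 pigs, with differences of HS minus TN of 0.25 and 0.26. The EIF2S1 sequence under its other name read 0.52 lower in the median pig, with differences of -0.003 and 0.02. The EIF4EBP1 pair was the least alike of the 5 pairs, with a Pearson correlation of 0.65 over the pigs, against 0.95 to 0.99 for the other 4 (a description over 35 pigs of 6 groups).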
